A study of Mus musculus with 30 samples.

Results

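The 10 genes described here are Lrp2, Cubn, Amn, Dab2, Apoa1, Apoe, Ttr, Afp, Rbp4 and Spink1, which serve nutrient uptake and secretion in the visceral endoderm of the mouse embryo. They were taken by name, not by a threshold on a measured value, but with earlier results of these data known. All 10 were found among the 29555 genes of both deposited RNA tables. The peaks that lie in or within 10 kb of them number 80 of 158917 in the peak table that holds definitive endoderm and 94 of 181059 in the peak table of epiblast stem cells.

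The study measured RNA by poly(A) RNA-seq and open chromatin by ATAC-seq in mouse epiblast stem cells (EpiSCs), pluripotent cells that resemble the epiblast of the embryo shortly before gastrulation, and in definitive endoderm (DE) made from them. All EpiSCs were cultured on feeder cells in N2B27 medium with Fgf2, ActivinA and the Wnt inhibitor NVP-TNKS656, at passage 5 to 10, and were lifted with collagenase before RNA isolation. DE was made from B6 EpiSCs by 16 h of CHIR99201, a Wnt pathway agonist, with ActivinA, followed by 24 h of ActivinA with LDN193189, a BMP receptor inhibitor. The labels also give 46 h of differentiation, and they do not explain the difference. The DE cells were then selected for the surface protein CXCR4 on magnetic beads, so they are the CXCR4+ fraction of the culture and not all of it. The RNA libraries of EpiSCs number 5 for B6 (C57BL/6), 3 for PWK (PWK/PhJ), 3 for B6129F1 and 1 for DBA (DBA/2J), and those of B6 DE number 4. For ATAC-seq there were 4 libraries of B6 DE and, of EpiSCs, 4 for B6, 2 for PWK and 1 for DBA. B6 and DBA are common laboratory inbreds, PWK was bred from wild-caught mice, and B6129F1 is a first-generation cross of B6 with 129. Replicate numbers are those of the labels. One column each of PWK and B6129F1 in the deposited tables names its strain but none of the replicates in the labels, so it was matched to its group only and is called the unnumbered library.

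The visceral endoderm is the extraembryonic epithelium that surrounds the early mouse embryo and feeds it before the placenta works. It takes up maternal proteins, lipids and vitamins through large receptors at its surface and secretes lipoproteins and carrier proteins, as the liver does later. Definitive endoderm arises from the epiblast during gastrulation and builds the gut, the liver and the pancreas, and it shares many transcription factors with the visceral endoderm. Lrp2 (megalin) is a giant receptor of the LDL receptor family. Cubn (cubilin) is a large receptor with no membrane anchor of its own, and Amn (amnionless) anchors it and carries it to the surface. Dab2 is an adaptor that links the receptor tails to clathrin.

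RNA depth ran from 22829536 to 66563933 counts per B6 DE library and from 24529054 to 29947841 per EpiSC library. ATAC-seq depth was lower, at 3751526 to 9571127 counts in peaks per library. Most marker genes in the B6 libraries fit the labels. Of the 15 tested definitive endoderm markers 13 were higher in DE, and Cxcr4, for which the DE cells were selected, is on that list. Of the 10 tested primed pluripotency markers 7 were lower and 2 were higher. Among all genes tested 31.5% were called higher and 30.6% lower. RNA of feeder fibroblasts differed between libraries, and the summed level of 15 fibroblast markers, in counts scaled to a library of 1000000 (CPM), was 229.6 to 494 CPM in B6 DE and 159.6 to 3968 in B6 EpiSCs. Of 8 macrophage markers only Cd68 passed the filter on low counts, and the summed level of the 8 was 2.26 to 2.49 CPM in DE and 3.65 to 6.49 in EpiSCs.

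The promoters below are shown because the RNA level or the open chromatin at these genes moved between EpiSCs and DE. They are RefSeq sequences of build GRCm38.p6 from 250 bases before to 30 after the start site farthest upstream, written 5′ to 3′ on the strand of the gene. Of the 10 genes, 8 had an entry. Capitals mark matches, on either strand, to short motifs of factor families: AGATAA or TGATAA for GATA factors, TGTTTAC for forkhead factors, CAAAGTCCA for HNF4, ACAATGG for SOX factors, CTTTGAT for TCF/LEF factors, and the TATA motif TATAAA.

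Lrp2 (chr2:69586000-69586279, minus strand): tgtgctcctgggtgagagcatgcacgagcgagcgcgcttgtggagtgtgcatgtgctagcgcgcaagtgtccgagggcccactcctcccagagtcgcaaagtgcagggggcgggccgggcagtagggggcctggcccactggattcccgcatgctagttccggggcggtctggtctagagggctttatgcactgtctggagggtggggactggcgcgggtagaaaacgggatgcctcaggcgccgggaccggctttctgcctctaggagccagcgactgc
Apoa1 (chr9:46228380-46228659, plus strand): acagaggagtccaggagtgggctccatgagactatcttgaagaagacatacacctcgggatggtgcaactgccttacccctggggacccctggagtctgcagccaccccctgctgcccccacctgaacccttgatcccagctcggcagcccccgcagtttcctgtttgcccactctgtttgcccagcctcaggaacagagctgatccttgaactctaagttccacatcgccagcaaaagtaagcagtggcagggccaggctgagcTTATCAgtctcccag
Apoe (chr7:19699159-19699438, minus strand): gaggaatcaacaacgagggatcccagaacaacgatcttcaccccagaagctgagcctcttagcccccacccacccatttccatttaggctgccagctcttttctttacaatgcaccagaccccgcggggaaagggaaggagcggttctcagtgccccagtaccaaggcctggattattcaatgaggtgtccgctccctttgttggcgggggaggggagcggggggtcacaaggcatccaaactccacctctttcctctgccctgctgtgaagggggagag
Rbp4 (chr19:38125292-38125571, minus strand): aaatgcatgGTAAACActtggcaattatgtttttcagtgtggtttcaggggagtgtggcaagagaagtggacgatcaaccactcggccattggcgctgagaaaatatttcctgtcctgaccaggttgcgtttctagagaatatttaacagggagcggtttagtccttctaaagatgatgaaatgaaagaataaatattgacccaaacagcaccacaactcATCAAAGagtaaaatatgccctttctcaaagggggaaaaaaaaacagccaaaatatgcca
Afp (chr5:90490464-90490743, plus strand): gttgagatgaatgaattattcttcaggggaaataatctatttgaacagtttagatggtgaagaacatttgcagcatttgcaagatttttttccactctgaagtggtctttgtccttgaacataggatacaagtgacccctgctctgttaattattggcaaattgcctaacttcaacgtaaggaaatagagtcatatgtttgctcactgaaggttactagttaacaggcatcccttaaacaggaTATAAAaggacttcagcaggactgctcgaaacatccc

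The Lrp2 window and this Apoe window held none of the 7 motifs. Windows of other starts, not printed, did hold some: those of the other 2 Apoe starts held TGTTTAC from base -5 in one and TATAAA from bases -100 and -96 in the other, and that of the downstream Rbp4 start held TATAAA from base -28. The Lrp2 window had a GC content of 66.1% with 20 CpG dinucleotides. The Apoa1 window held TGATAA on the opposite strand, with its first base 16 bases after the start. The Rbp4 window held TGTTTAC from base -241 and CTTTGAT from base -30, both on the opposite strand. The Afp window held TATAAA from base -7. Among 32817 RefSeq promoter windows of the same length, 8.70% held TGATAA, 10.7% AGATAA, 3.48% TGTTTAC, 0.457% CAAAGTCCA, 3.46% ACAATGG, 3.56% CTTTGAT and 13.1% TATAAA. A match is a run of letters and does not show that a factor binds there. With both strands searched, matches to different motifs can overlap: both GATA motifs share GATAA, and the TCF/LEF motif can overlap TGATAA and the HNF4 motif.

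The first comparison asked how these genes differ between B6 EpiSCs and the DE made from them. The uptake receptor Lrp2 was high in EpiSCs and nearly silent in DE, while the secreted proteins Apoe, Apoa1, Rbp4 and Spink1 and the cubilin partner Amn were higher in DE. Dab2 was lower in DE by a narrow margin, Cubn did not pass the test, and Ttr and Afp gave almost no RNA in either cell type. Of the 10 genes 8 passed the filter on low counts, and 5 of these were higher in DE, 2 were lower and 1 was not called. Among all 14085 genes tested, 31.5% were called higher and 30.6% lower, so a call by itself does not set a gene apart here. The groups did not overlap for 6 of the 8 tested genes, against 55.6% of all genes. Levels are CPM of the scaled library size, calls are at an adjusted p under 0.05 (edgeR quasi-likelihood test, Benjamini-Hochberg adjustment over all genes), and log2 changes are DE minus EpiSC with the standard error of the fit. Fewer cells of a kind and less RNA per cell cannot be told apart in these bulk libraries.

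Among the receptors, Lrp2 (ENSMUSG00000027070, chr2:69424335-69586029) had the largest change of the 8 tested genes. In EpiSCs its level was 120, 143, 118, 134 and 129 CPM in replicates 1, 2, 4, 44 and 51. In DE it was 1.37, 2.80, 2.38 and 2.29 CPM in replicates 2, 4, 44 and 51. The 5 EpiSC libraries lay close together and all DE libraries lay far under them. The means were 129 ± 10.2 CPM (SD, n = 5) and 2.21 ± 0.602 CPM (SD, n = 4), a log2 change of -5.84 (SE 0.23, adjusted p = 2.99e-07 in the edgeR test), or 57.3-fold lower in DE. The fibroblast marker sum was 159.6 CPM in EpiSC replicate 1, the lowest of the EpiSC libraries and under every DE library, and Lrp2 stood at 120 CPM in that library. The part of feeder RNA in the Lrp2 difference was not tested.

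Cubn (chr2:13276338-13491876), the receptor that works with megalin, was barely expressed in either cell type. Its level was 0.796, 0.228, 0.613, 0.194 and 1.18 CPM in EpiSC replicates 1, 2, 4, 44 and 51. In DE replicates 2, 4, 44 and 51 it was 0.152, 0.0994, 0.860 and 0.243 CPM. The groups overlapped, and the log2 change of -0.85 (SE 0.80) did not pass the test (adjusted p = 0.376, edgeR). With a standard error of this size the data do not show that Cubn was equal in both.

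Amn (chr12:111271096-111276426) was the reverse of Lrp2, absent from nearly all EpiSC libraries and low but steady in DE. It gave 0 counts in EpiSC replicates 1, 2, 4 and 51 and 3 counts in replicate 44. In DE replicates 2, 4, 44 and 51 its level was 1.17, 1.33, 1.06 and 0.682 CPM. The pooled counts were 175 in DE and 3 in EpiSCs, a ratio of 47.1 after scaling by library size, with an exact 95% interval from 15.8 to 230.4, which covers counting error only. The fitted log2 change was 5.43 (SE 0.96, adjusted p = 0.000686, edgeR), and it depends on the prior count because EpiSCs were near 0. Cubn stayed under 1 CPM in all 4 DE libraries, so its anchor rose where Cubn itself did not pass the test.

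The adaptor Dab2 (chr15:6299788-6440715) was modestly lower in DE, and the groups overlapped. EpiSC replicates 1, 2, 4, 44 and 51 had 5.57, 9.44, 8.80, 10.7 and 16.7 CPM, and DE replicates 2, 4, 44 and 51 had 3.10, 6.86, 5.43 and 6.28 CPM. The log2 change was -0.91 (SE 0.36, adjusted p = 0.0452, edgeR). The call was lost when any 1 of 7 of the 9 libraries was left out (all but DE replicate 4 and EpiSC replicate 1), with adjusted p from 0.0576 to 0.118. It was also lost with no filter on low counts (adjusted p = 0.0539). Dab2 and the fibroblast markers were both lowest in EpiSC replicate 1 and both highest in replicate 51, where the marker sum was 3968 CPM. The part of feeder RNA in the Dab2 difference was not tested.

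Among the apolipoproteins, Apoe (chr7:19696244-19701310), a ligand of the LDL receptor family that carries lipid between cells, reached the highest levels in DE. Its level was 48.6, 41.5, 99.1, 46.7 and 67.0 CPM in EpiSC replicates 1, 2, 4, 44 and 51 and 1136, 531, 548 and 564 CPM in DE replicates 2, 4, 44 and 51. DE replicate 2 stood apart, the other 3 DE libraries lay close together, and all 4 lay above every EpiSC library. The EpiSC mean was 60.6 ± 23.6 CPM (SD, n = 5) and the SD of the 4 DE libraries was 294 CPM, with a log2 change of 3.52 (SE 0.33, adjusted p = 1.16e-05, edgeR), or 11.5-fold. Leaving out each library in turn kept the change between 3.19 and 3.76.

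Apoa1 (chr9:46228630-46230469), the main protein of high-density lipoprotein, rose from traces to a few CPM. EpiSC replicates 1, 2, 4, 44 and 51 had 0.644, 0.114, 0.469, 0.226 and 0.0739 CPM. DE replicates 2, 4, 44 and 51 had 14.1, 1.92, 8.72 and 2.32 CPM. The groups did not overlap, but the DE libraries split into a pair with high and a pair with low values. The high pair, replicates 2 and 44, had depths of 22829536 and 25410448 counts. The low pair, replicates 4 and 51, had 59995667 and 66563933 counts. The part of depth in this split was not tested. The log2 change was 4.45 (SE 0.82, adjusted p = 0.000849, edgeR).

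Among the carriers, Rbp4 (chr19:38116620-38125321), which carries retinol in blood, was 0.493, 0.799, 1.48, 1.13 and 0.849 CPM in EpiSC replicates 1, 2, 4, 44 and 51. It was 72.0, 34.6, 49.4 and 12.3 CPM in DE replicates 2, 4, 44 and 51, all above every EpiSC library. The log2 change was 5.46 (SE 0.52, adjusted p = 1.23e-05, edgeR), or 43.9-fold. Among the DE libraries, Rbp4 and Apoa1 were both highest in replicate 2 and next highest in replicate 44, the DE libraries of lower depth.

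Ttr (chr18:20664209-20674326), which carries thyroid hormone and binds Rbp4 in blood, gave 2 counts in DE replicate 2 and 0 counts in the other 8 libraries. Afp (chr5:90490714-90508907), the fetal serum protein that marks visceral endoderm and later the fetal liver, gave 6 counts in DE replicate 2, or 0.305 CPM, and 0 counts in the other DE libraries. In EpiSCs Afp gave 4 counts over all 5 libraries. Neither gene passed the filter on low counts, so no test and no fold is given. A count of 3, taken as the limit of detection, stood at 0.0455 to 0.152 CPM in the DE libraries and at 0.0970 to 0.114 CPM in the EpiSC libraries.

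Spink1 (chr18:43728069-43737237), a secreted trypsin inhibitor of gut and pancreas, was higher in DE but varied widely within both groups. Its level was 8.11, 0.152, 11.2, 2.56 and 0.148 CPM in EpiSC replicates 1, 2, 4, 44 and 51, and 101, 27.2, 35.4 and 75.5 CPM in DE replicates 2, 4, 44 and 51. EpiSC replicates 2 and 51 gave 4 counts each, while replicates 1 and 4 gave 214 and 310. The log2 change was 3.75 (SE 1.04, adjusted p = 0.00928, edgeR), and the groups did not overlap.

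**Figure D1:**
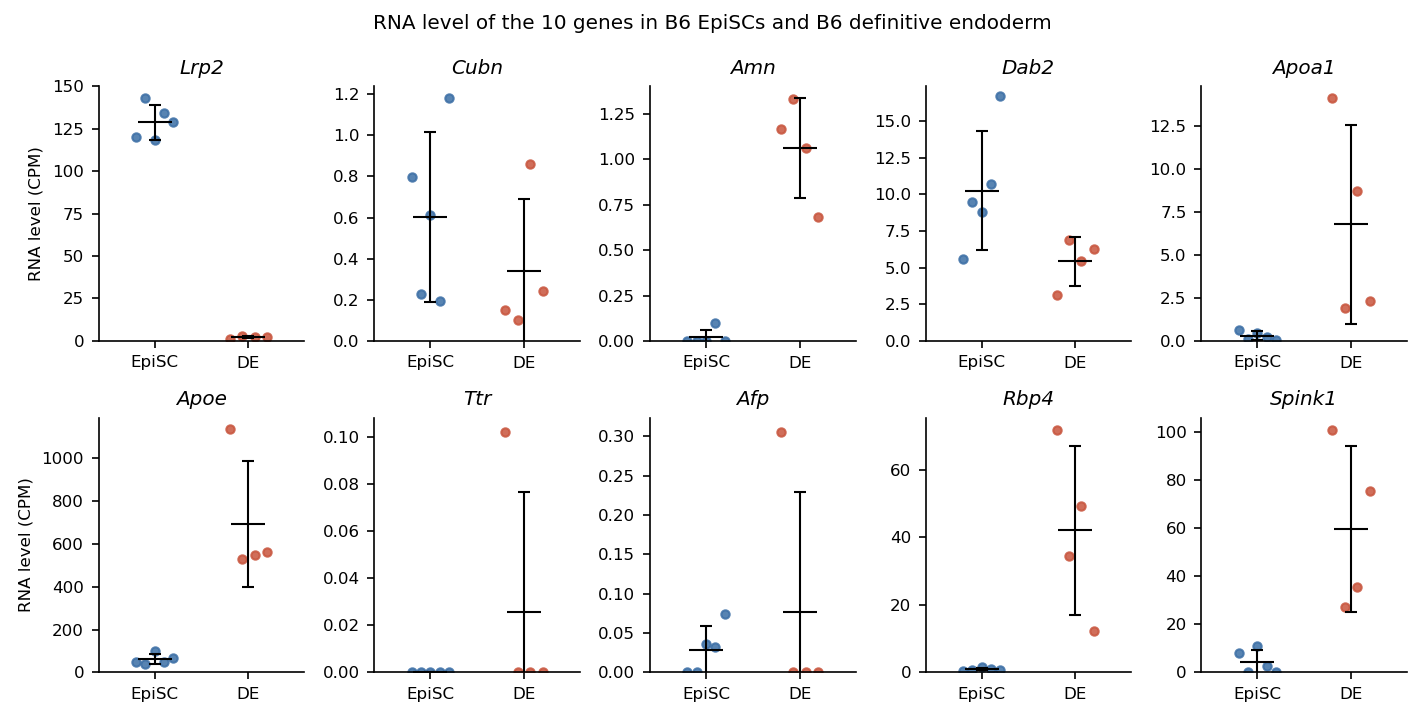
RNA level in CPM of the scaled library size (y axis, a separate linear scale from 0 in each panel) of the 10 genes in B6 EpiSCs (blue, 5 libraries) and B6 DE (red, 4 libraries). Points are libraries, and black marks are the mean with SD, clipped at 0; Lrp2 falls from 118 to 143 CPM to under 3 CPM, while Apoe, Apoa1, Rbp4, Spink1 and Amn lie higher in every DE library than in any EpiSC library.

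By likeness of levels over the 9 B6 libraries, the genes closest to Lrp2 were Mmp25 (Pearson r = 0.999), Foxk1 (0.998) and Macf1 (0.998). Those closest to Amn were Slc35a2 (0.995), Msantd4 (0.991) and Fam151a (0.990), and those closest to Cubn were Haus2 (0.931), Ptbp2 (0.907) and Aph1b (0.880). These values describe 9 libraries in 2 groups, and for Lrp2 and Amn they mostly restate the difference between the groups.

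Genes of the wider uptake machinery went both ways, in shares near those of all genes. In a list of 26 genes of the receptor complex and of endocytosis, all tested, 10 were higher in DE and 6 lower, and the median of the list was 0.18 on the log2 scale against -0.01 over all genes. Among all genes 31.5% were called higher and 30.6% lower, so nothing is read from these counts about the list. Lrpap1, the chaperone that escorts Lrp2 and its relatives through the cell, rose from 80.0 to 319 CPM (log2 change 2.00, adjusted p = 2.17e-06). Gipc1, which links the Lrp2 tail to myosin VI, rose from 41.4 to 226 CPM (2.45, adjusted p = 6.16e-06). Of the clathrin adaptor AP-2, the small subunit Ap2s1 rose (1.41, adjusted p = 0.00435) and the beta subunit Ap2b1 fell (-2.16, adjusted p = 4.26e-06). The early and recycling endosome proteins Rab5a (1.08) and Rab11a (1.26) were also higher.

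The LDL receptor family mostly fell. Of its 13 genes 12 were tested, of which 8, with Lrp2 among them, were lower and only Lrp10 was higher (1.10), with a median of -1.76. Among all genes 30.6% were called lower and 31.5% higher. Lrp5 and Lrp6, the co-receptors of Wnt signalling, changed by -4.10 (adjusted p = 0.000170) and -1.97. Lrp4 changed by -3.06 (adjusted p = 2.96e-06), Lrp1 by -2.83 (adjusted p = 0.000108) and Lrp11 by -2.65 (adjusted p = 9.84e-06). Lrp1 is also expressed by fibroblasts, whose markers were higher in EpiSCs (11 of 15 lower in DE, median -3.19), and the part of feeder RNA in its change was not tested.

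Few carrier and plasma proteins were expressed at a level that could be tested. Of 25 on the list 9 passed the filter on low counts, with 4 higher (Apoa1, Apoe, Rbp4 and Spink1, which are members of the 10 genes), 1 lower and a median of 0.03. The shares over all genes were 31.5% higher and 30.6% lower. The one that fell was Apoa2 (-1.19, adjusted p = 0.0438). Of the 25, 5 gave 0 counts in all 9 libraries. Apob, the core protein of low-density lipoprotein, stood at 1.25 CPM in EpiSCs and 1.28 CPM in DE (0.03, adjusted p = 0.974), and its loading factor Mttp at 10.1 and 7.03 CPM (-0.52, adjusted p = 0.0858).

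Genes of retinol and vitamin handling were mixed. Of 16 genes 12 were tested, 6 were higher in DE and 2 lower, against 31.5% and 30.6% of all genes, with a median of 1.19. Stra6, the cell surface receptor for the Rbp4 and retinol complex, rose from 2.59 ± 1.53 to 85.7 ± 39.2 CPM (5.05, adjusted p = 2.44e-05). Cyp26a1, which degrades retinoic acid, rose to 345 CPM (3.90, adjusted p = 0.000845). Tcn2, the carrier of vitamin B12 in blood, rose from 32.0 to 256 CPM (adjusted p = 3.69e-06), and its receptor Cd320 changed by 1.51 (adjusted p = 0.000163). Crabp2, a retinoic acid binding protein inside cells, fell (-2.20, adjusted p = 0.00408). The carrier Rbp4 and its receptor Stra6 were thus both higher in DE.

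Most transcription factors known from the visceral endoderm were higher in DE, while Hnf4a did not pass the filter on low counts. Of 19 factors 14 were tested, 12 were higher and none lower, against 31.5% and 30.6% of all genes, with a median of 3.91. Sox17 rose by 7.80 on the log2 scale (adjusted p = 1.91e-05), Gsc by 6.30 and Hhex by 5.58. Of the 19 factors 8 are also on the list of definitive endoderm markers, so the list does not tell both tissues apart. Hnf4a, a master regulator of plasma protein genes in visceral endoderm and liver, stood at 0.180 CPM in EpiSCs and 0.338 CPM in DE and was not tested, and neither were Sox7, Nr5a2 and Cebpa. Of 14 extraembryonic endoderm markers 6 were tested, and 2 of these rose, a share near that of all genes. They were Pdgfra (2.74, adjusted p = 0.000174, edgeR) and Cited1 (2.38, adjusted p = 0.00187, edgeR), and the median of the tested genes was -0.24. The summed level of the 14 was 19.3 to 27.1 CPM in EpiSCs and 50.3 to 83.6 CPM in DE. In this sum Pdgfra alone had means of 7.24 CPM in EpiSCs and 48.5 CPM in DE. Sox7 and Hnf4a were among the 8 genes of this list that were not tested, and Sox7 stood at 0.545 CPM in DE. Ttr and Afp, which are not on this list, gave almost no RNA.

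**Figure D2:**
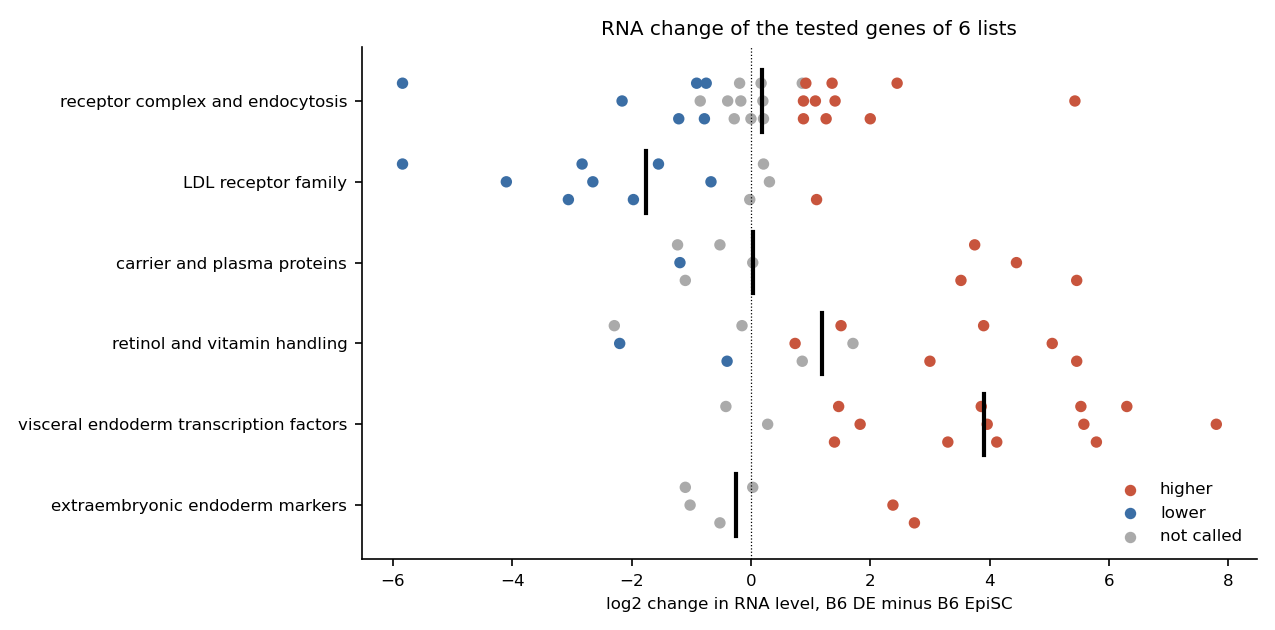
Log2 change in RNA level, B6 DE minus B6 EpiSC (x axis), of the tested genes in 6 lists (rows). Red points passed the test as higher in DE, blue as lower and grey did not pass, and black bars are list medians; the LDL receptor family lies mostly left of 0 and the transcription factors mostly right of it.

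The second question was how the genes vary among EpiSCs of different strains, which are compared with the same 5 B6 libraries. Lrp2 was lower in PWK EpiSCs and Dab2 was higher, and nothing else among the 10 genes passed the test. Of the 10 genes 6 were tested in the fit to the B6, PWK and B6129F1 libraries, and 1 was called higher and 1 lower in PWK. In that comparison 12.0% of 14822 genes were called higher and 14.5% lower. The groups did not overlap for 2 of the 6 tested genes, Lrp2 and Dab2, against 32.1% of all genes. The RNA level of Lrp2 in PWK was 26.9, 38.5 and 28.7 CPM, the last value being that of the unnumbered library. In B6 it was 125, 149, 121, 139 and 135 CPM in replicates 1, 2, 4, 44 and 51, and every PWK library lay far under every B6 library. The means were 31.4 ± 6.21 CPM (SD, n = 3) and 134 ± 11.3 CPM (SD, n = 5), a log2 change of -2.09 (SE 0.16, adjusted p = 6.46e-06, edgeR), or 4.26-fold lower in PWK. In the family, Lrp4 (-0.78, adjusted p = 0.000618) and Lrp11 (-0.70, adjusted p = 0.00354) were also lower in PWK, and 4 of 13 family genes fell, with a median of -0.08 against -0.01 over all genes.

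Dab2 in PWK was 28.4, 25.6 and 22.5 CPM in the libraries in the same order, all above the B6 range of 5.82 to 17.3 CPM. The log2 change was 1.26 (SE 0.27, adjusted p = 0.00581, edgeR). The fibroblast marker sum was 3419 to 4454 CPM in the PWK libraries, 167 to 4130.3 CPM in the B6 libraries and 258 to 366 CPM in the B6129F1 libraries, whose Dab2 levels were 5.60, 6.90 and 6.28 CPM. B6 replicate 51, whose marker sum of 4130.3 CPM lay inside the PWK range, had 17.3 CPM of Dab2, under all PWK libraries. Lrp2 in that library, at 135 CPM, was as high as in the other B6 libraries. The part of feeder RNA in the Dab2 and Lrp2 differences between strains was not tested.

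Rbp4 was at 0.404, 0.335 and 0.595 CPM in PWK, under the B6 mean of 0.983 CPM, and narrowly missed the test (-1.14, SE 0.40, adjusted p = 0.0561, edgeR). It passed with DESeq2 (-1.13, adjusted p = 0.0453) and in edgeR without B6 replicate 1 (-1.31, adjusted p = 0.0224). Cubn (0.58, SE 0.63), Apoe (0.07, SE 0.27) and Spink1 (-0.73, SE 1.09) were not called in PWK, and the wide errors of Cubn and Spink1 leave large differences possible. Amn, Apoa1, Ttr and Afp were too low to be tested in any EpiSC strain.

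B6129F1 EpiSCs were not called different from B6 for any of the 6 tested genes (edgeR quasi-likelihood test), where 1.34% of all genes were called higher and 1.50% lower. The same edgeR fit had 2 of the 6 genes at an unadjusted p under 0.05, Cubn (-1.72, adjusted p = 0.181) and Dab2 (-0.76, adjusted p = 0.137). DESeq2 called 0 of the 6 genes as well. Dab2 passed only when B6 replicate 1 was left out (-0.87, adjusted p = 0.0303, edgeR), among all alternatives run. Lrp2 in B6129F1 was 177, 121 and 131 CPM in replicates 4 and 9 and the unnumbered library, against a B6 range of 121 to 149 CPM (log2 change 0.10, SE 0.14).

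The single DBA library has no replicate and no test. On a scale common to all 12 EpiSC libraries, Lrp2 was at 51.2 CPM in DBA, against 121 to 147 CPM in B6, 122 to 182 CPM in B6129F1 and 26.6 to 38.0 CPM in PWK. It thus lay 2.59-fold under the B6 mean of 133 CPM and above all PWK libraries. Among all genes with a mean of at least 1 CPM, 7.93% lay more than 2-fold from the B6 mean in this library. The order of the levels of Lrp2 was B6129F1 and B6, which overlapped, then DBA, then PWK. Dab2 in DBA, at 10.7 CPM, lay inside the B6 range, and Apoe, at 31.7 CPM, lay under the lowest B6 library of 42.9 CPM. Spink1, at 0.559 CPM, was inside the wide B6 range of 0.151 to 11.4 CPM, and Rbp4, at 1.64 CPM, was just above the highest B6 library of 1.51 CPM.

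**Figure D3:**
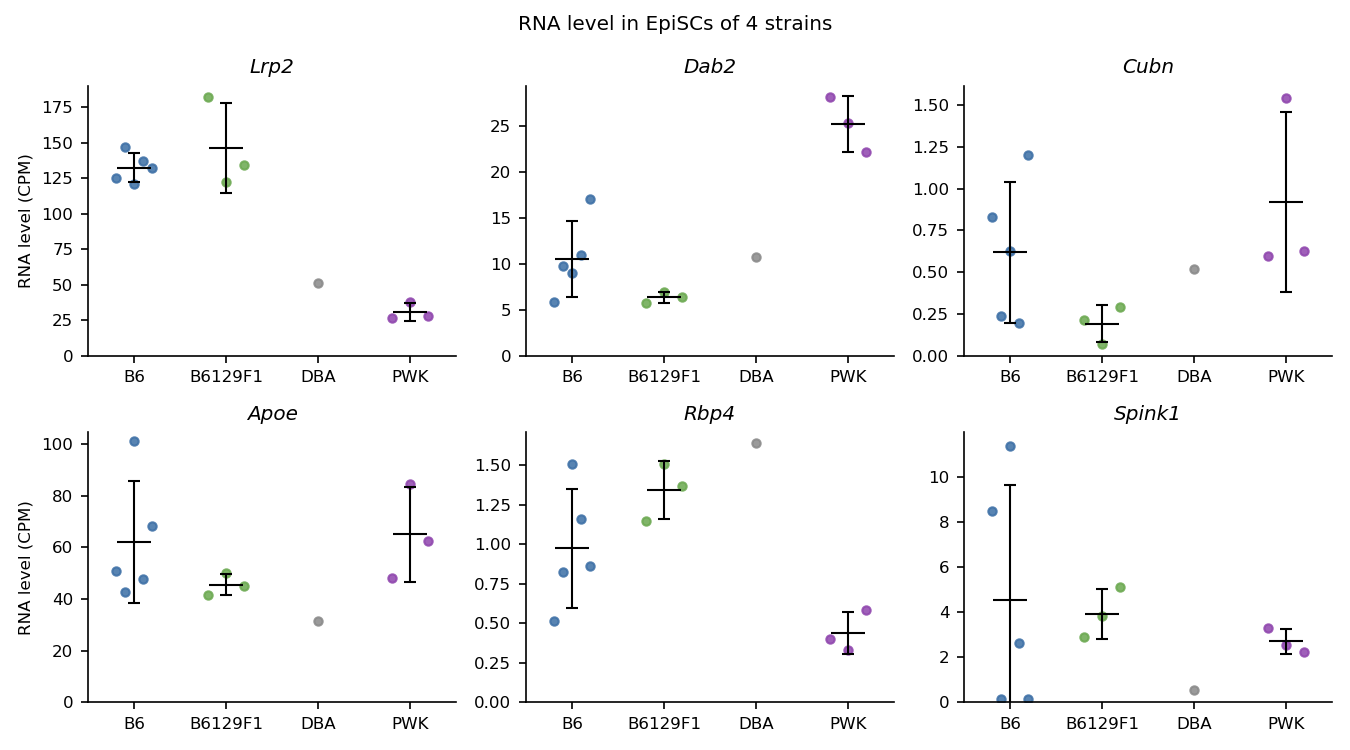
RNA level in CPM (y axis, a separate linear scale from 0 in each panel) of 6 of the genes in EpiSCs of 4 strains, all scaled together. Points are libraries (5 B6, 3 B6129F1, 1 DBA, 3 PWK), and black marks are the mean with SD, clipped at 0, where there are replicates; Lrp2 is 26.6 to 38.0 CPM in PWK and at least 121 CPM in B6 and B6129F1.

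The third question was whether chromatin opened or closed at these genes between B6 EpiSCs and DE. At Lrp2 and Cubn more peaks were lower in DE than higher, and at Amn, Dab2, Apoa1, Apoe, Ttr, Afp, Rbp4 and Spink1 more were higher than lower. Ttr and Afp are among these although they gave almost no RNA. Of the 80 peaks in or within 10 kb of the 10 genes 60 were tested, 23 were higher in DE and 18 lower, and their median log2 change was 0.26. Among all 113870 peaks tested, 32.6% were called higher and 25.0% lower, with a median of -0.01, so a called peak is common in this comparison. The counts per gene stand beside these shares and are small, with 1 tested peak at Ttr, 5 at Apoe and 8 at Dab2. The groups did not overlap at 36 of the 60 tested peaks, against 53.8% of all peaks. The balance turned with the window, since within 2 kb of the genes 14 peaks were higher and 16 lower, with a median of -0.12. In that window Apoe had 1 peak higher and 1 lower, and Rbp4 had no tested peak. Coordinates are those of the deposited peak tables, build mm10 per the submitters' processing notes, and the tables do not say whether starts count from 0 or 1.

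At Lrp2, 5 of 10 tested peaks were lower in DE and 1 higher. The peak over the start site (chr2:69585960-69586166), which overlaps the promoter printed above, had 14.9, 11.7, 10.9 and 16.4 CPM in EpiSC replicates 1, 4, 44 and 51. In DE replicates 2, 4, 44 and 51 it had 8.04, 7.52, 6.82 and 6.59 CPM. All DE libraries lay under all EpiSC libraries, but the drop was 1.86-fold (log2 change -0.90, SE 0.24, adjusted p = 0.00259, edgeR), against 57.3-fold for the RNA. A larger peak beyond the far end of the gene (chr2:69418326-69418861) fell from 43.3 ± 15.8 to 10.5 ± 2.95 CPM (SD, n = 4 each; -2.01, adjusted p = 1.06e-06). The largest drop at Lrp2 on the log2 scale was in a small peak 6648 bp from the start (chr2:69592677-69592868, chosen after its values were seen). It went from 5.96 to 0.147 CPM (-4.95, adjusted p = 1.99e-06, edgeR). The DE mean lay under the level of 3 counts, 0.409 to 0.824 CPM in the DE libraries, so the size of this change depends on the prior count.

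At Cubn, 10 of 18 tested peaks were lower in DE and 4 were higher, while the RNA was not called. The main one lies inside the gene, 120960 bp from the start (chr2:13370629-13370916). It had 18.1, 19.7, 17.5 and 33.4 CPM in EpiSC replicates 1, 4, 44 and 51 and 1.76, 0.783, 1.64 and 1.65 CPM in DE replicates 2, 4, 44 and 51. No DE library came near an EpiSC library (-3.94, SE 0.32, adjusted p = 4.75e-09, edgeR), a 15.3-fold drop. The peak nearest the Cubn start (chr2:13492412-13492490) was too low to be tested.

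At Amn, 3 of 6 tested peaks were higher and none lower. The one with the largest change (chr12:111268069-111268361), 2735 bp from the start and within 2 kb of the neighbours Traf3 and Gm51960, had 2.13, 1.43, 0.486 and 1.18 CPM in EpiSC replicates 1, 4, 44 and 51. In DE replicates 2, 4, 44 and 51 it had 19.2, 17.7, 16.1 and 6.59 CPM (3.44, SE 0.38, adjusted p = 2.08e-07, edgeR). A peak inside the gene near its far end (chr12:111275764-111276023, chosen after its values were seen) rose from 1.48 to 13.6 CPM (3.17, adjusted p = 8.52e-08). The peak nearest the start was not called (-0.29, adjusted p = 0.597).

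At Dab2, 3 of 8 tested peaks were higher and 1 was lower, against 32.6% and 25.0% of all peaks, so nothing is read from this count. The peak over the downstream one of its 2 RefSeq starts (chr15:6386482-6386882) had 14.8, 14.7, 19.7 and 17.1 CPM in EpiSC replicates 1, 4, 44 and 51 and 15.3, 12.8, 10.1 and 10.2 CPM in DE replicates 2, 4, 44 and 51. The groups overlapped, and the change was not called (-0.44, SE 0.21, adjusted p = 0.0808, edgeR).

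At Apoa1 the peak over the start site (chr9:46228432-46228666), where the TGATAA match of the printed promoter lies, was higher in DE. It had 0.914, 2.29, 0.729 and 0.295 CPM in EpiSC replicates 1, 4, 44 and 51 and 6.86, 3.76, 8.59 and 5.49 CPM in DE replicates 2, 4, 44 and 51. The groups did not overlap (2.41, SE 0.48, adjusted p = 0.000195, edgeR). Of the 3 tested peaks at Apoa1 2 were higher, the other one lying near Apoc3.

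At Apoe neither of the peaks over a start site was higher in DE, while its RNA was 11.5-fold higher. The peak over the start farthest downstream of its 3 RefSeq starts (chr7:19698247-19698479) had 7.61, 9.45, 8.26 and 6.05 CPM in EpiSC replicates 1, 4, 44 and 51 and 8.63, 7.21, 10.4 and 7.41 CPM in DE replicates 2, 4, 44 and 51 (0.10, SE 0.26, adjusted p = 0.749, edgeR), a value that turns negative under other settings. The peak over the start farthest upstream, whose promoter is printed above, fell from 16.3 ± 3.91 to 8.93 ± 2.13 CPM (SD, n = 4 each). This peak (chr7:19698982-19699344, chosen after its values were seen) also lies within 2 kb of Tomm40 and changed by -0.88 (adjusted p = 0.00359, edgeR). The peak that rose most lies 5329 bp from the start and within 2 kb of the neighbouring gene Tomm40 (chr7:19704517-19704815). It had 1.07, 0.859, 1.21 and 0.885 CPM in EpiSC replicates 1, 4, 44 and 51 and 10.6, 25.7, 18.8 and 14.3 CPM in DE replicates 2, 4, 44 and 51 (4.13, SE 0.35, adjusted p = 6.93e-09, edgeR), or 17.6-fold. A peak beyond the other end of the gene (chr7:19695291-19695491, chosen after its values were seen) rose from 2.79 to 17.6 CPM (2.62, adjusted p = 4.93e-07).

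At Rbp4 both tested peaks were higher in DE, and neither lies at the start. The one near the neighbour Ffar4 (chr19:38112457-38112887) had 2.74, 2.39, 5.10 and 4.13 CPM in EpiSC replicates 1, 4, 44 and 51 and 22.5, 31.8, 16.9 and 24.7 CPM in DE replicates 2, 4, 44 and 51 (2.79, SE 0.27, adjusted p = 5.04e-08, edgeR). The peak at the start (chr19:38124944-38125011) had at most 17 counts in any library and was not tested. The printed window of the upstream Rbp4 start held no peak of the table.

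The 1 tested peak at Ttr and 2 of 3 tested peaks at Afp were higher in DE, although almost no RNA was counted. Among all peaks tested 32.6% were called higher. The 1 tested peak at Ttr (chr18:20662701-20662848), 1361 bp outside the nearer gene end and within 2 kb of the gene model Gm16090, had 1.52, 0.954, 0.243 and 0.295 CPM in EpiSC replicates 1, 4, 44 and 51 and 6.08, 7.05, 6.41 and 3.57 CPM in DE replicates 2, 4, 44 and 51 (2.84, SE 0.48, adjusted p = 3.61e-05, edgeR). The named Afp peak (chr5:90488364-90488670), 2044 bp before the start and outside the printed promoter, had 2.44, 2.29, 1.46 and 0.590 CPM in EpiSC replicates 1, 4, 44 and 51. In DE replicates 2, 4, 44 and 51 it had 18.2, 15.7, 12.0 and 6.59 CPM (2.91, SE 0.38, adjusted p = 1.91e-06, edgeR). All 4 DE libraries lay above all EpiSC libraries at these named peaks, and the groups did not overlap at 53.8% of all peaks. No peak overlapped the printed Afp window.

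At Spink1, 3 of 4 tested peaks were higher. The one 361 bp outside the nearer gene end (chr18:43737598-43737712) had 1.22 and 1.91 CPM in EpiSC replicates 1 and 4 and 0 counts in replicates 44 and 51. In DE replicates 2, 4, 44 and 51 it had 10.2, 11.9, 11.9 and 11.3 CPM (3.58, SE 0.51, adjusted p = 6.98e-06, edgeR). A peak beyond the other end (chr18:43727099-43727289, chosen after its values were seen) fell from 13.6 to 5.35 CPM (-1.35, adjusted p = 0.000210).

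**Figure D4:**
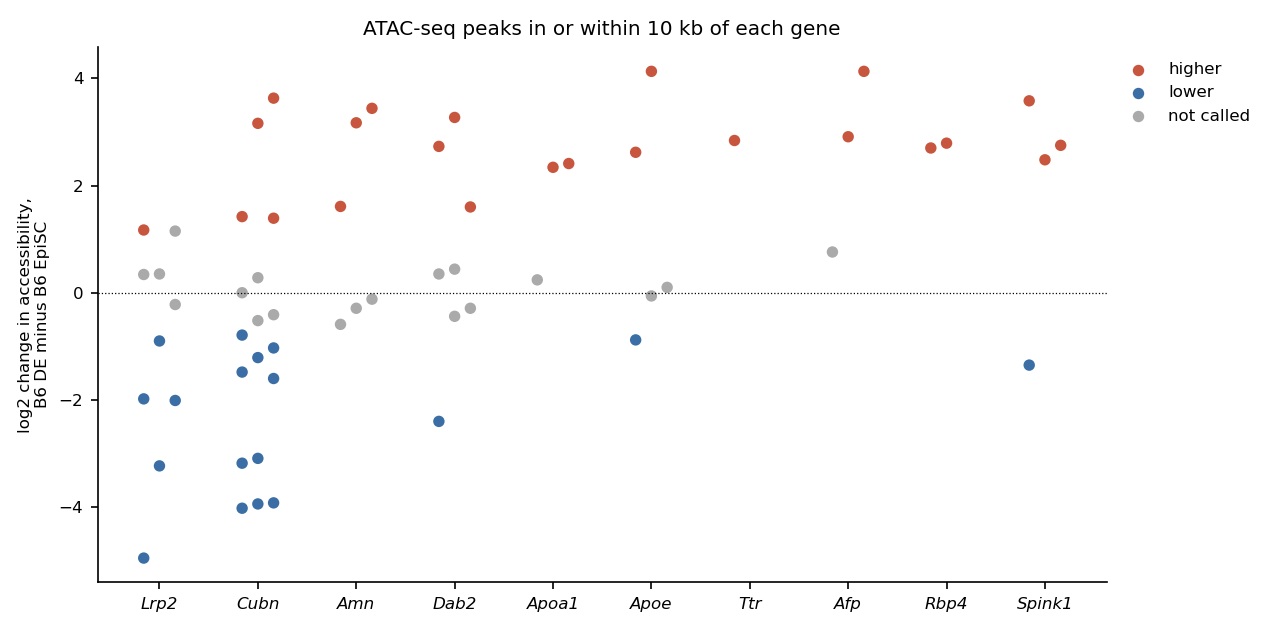
Log2 change in accessibility, B6 DE minus B6 EpiSC (y axis), of the 60 tested ATAC-seq peaks in or within 10 kb of each gene (x axis). Red points passed the test as higher in DE, blue as lower and grey did not pass. Lrp2 and Cubn carry 15 of the 18 lower peaks, and they also hold 10 and 18 of the 60 tested peaks. Among all peaks tested 25.0% were called lower.

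**Figure D5:**
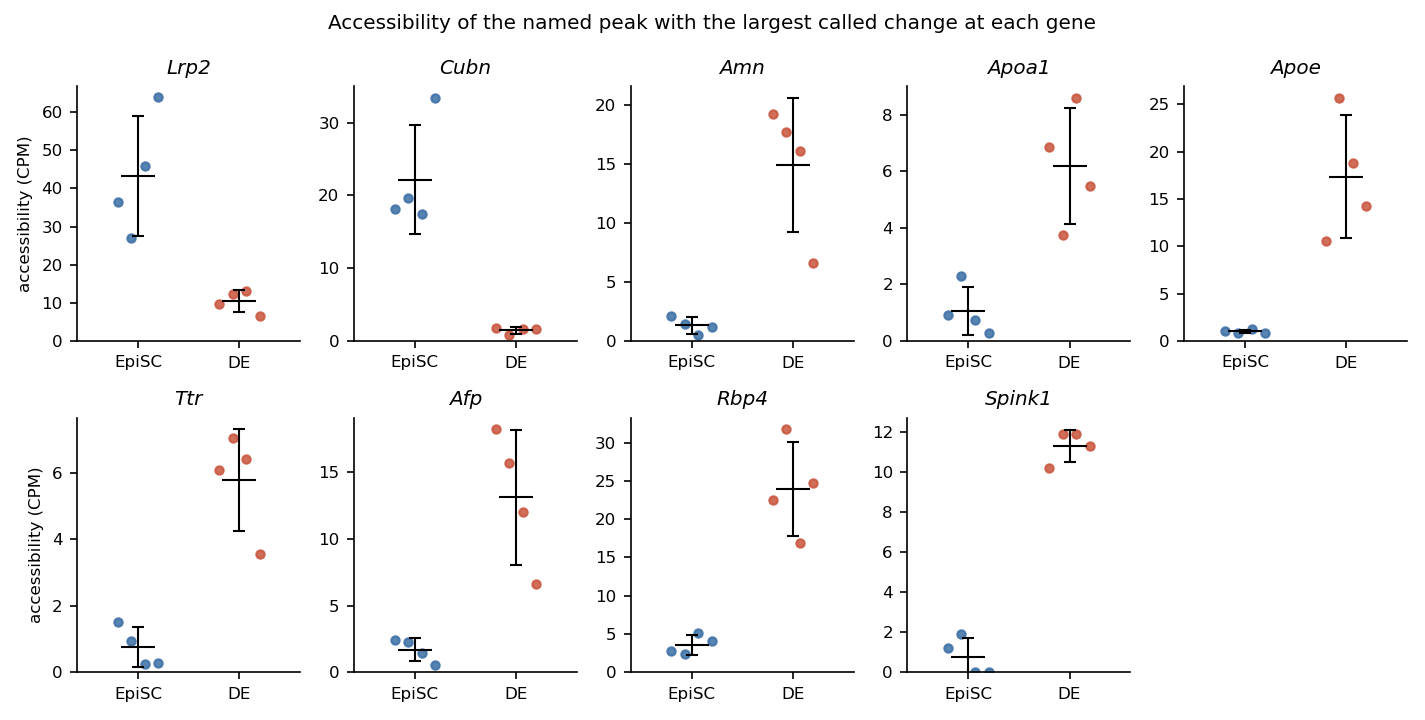
Accessibility in CPM of the scaled library size (y axis, a separate linear scale from 0 in each panel) of 1 named peak per gene in B6 EpiSCs (blue, 4 libraries) and B6 DE (red, 4 libraries), with mean and SD in black, clipped at 0. The 9 panels show peaks chosen for a called change, and that choice favours groups that do not overlap, so nothing is read from the lack of overlap in them. Over all peaks tested the groups did not overlap at 53.8%.

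Between PWK and B6 EpiSCs few peaks at the 10 genes differed. Of 94 peaks 67 were tested, 2 were higher and 2 lower in PWK, where 1.42% of 137667 tested peaks were called higher and 3.68% lower. The strains did not overlap at 14 of the 67, against 26.3% of all peaks. One of the lower peaks lies inside Lrp2 (chr2:69531726-69532024), with 8.84, 10.7, 7.76 and 9.22 CPM in B6 replicates 1, 4, 44 and 51 and 3.34 and 3.78 CPM in the numbered and the unnumbered PWK library. It passed narrowly (-1.36, SE 0.34, adjusted p = 0.0299, edgeR) and was lost when any 1 of 5 of the 6 libraries was left out (all but B6 replicate 44), with adjusted p from 0.0569 to 0.126. The peak over the Lrp2 start was 16.1, 13.5, 12.0 and 17.4 CPM in B6 replicates 1, 4, 44 and 51 and 12.1 and 9.33 CPM in PWK (-0.47, adjusted p = 0.391, edgeR), and the groups overlapped.

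The other lower peak is the one inside Cubn that closed in DE (chr2:13370629-13370916). It had 18.5, 21.4, 18.0 and 34.1 CPM in B6 EpiSC replicates 1, 4, 44 and 51 and 7.91 and 6.78 CPM in the numbered and the unnumbered PWK library (-1.66, SE 0.30, adjusted p = 0.00416, edgeR). The comparisons with DE and with PWK share the B6 EpiSC libraries. The peak that overlaps the lower Lrp2 peak (chr2:69531770-69532014) was also lower in DE (-1.98, adjusted p = 0.000193, edgeR). The higher peaks, named after their values were seen, lie inside Cubn (chr2:13409839-13410103, 1.17, adjusted p = 0.0228) and inside Dab2 (chr15:6410389-6410518, 0 counts in all B6 libraries and a mean of 3.10 CPM in PWK, adjusted p = 0.00896). The peak that overlaps this higher Cubn peak (chr2:13409872-13410078) went the other way in DE, where it was lower (-3.92, adjusted p = 5.85e-07, edgeR). In the single DBA library the Cubn peak, at 25.2 CPM, lay inside the B6 range of 17.5 to 34.0 CPM on a common scale, and 22.4% of all peaks lay more than 2-fold from the B6 mean. The Lrp2 start peak in DBA, at 15.7 CPM, was also inside the B6 range of 11.7 to 17.3 CPM, while its RNA in DBA was 2.59-fold lower.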

How the data were processed

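RNA-seq and ATAC-seq were measured in the groups given above, and 27 of the 30 samples have values. No values of PWK DE (3 samples) were analysed here, and 17 columns of the EpiSC peak table that belong to other samples were not used. The deposited tables hold raw counts per gene and per peak, as their whole numbers show. The submitters' processing notes name Salmon, featureCounts and DESeq2 for RNA, and fastp, Bowtie2, MACS2, featureCounts and DESeq2 for ATAC-seq, and build mm10. Tool versions, the role of each tool and the use of strand are not given in the sources used here. Build mm10 is a B6 genome, and the effect of sequence differences on the counts of other strains was not tested. Each table uses 1 set of features for all its libraries.

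Tests used edgeR 4.0.16 in R 4.3.3 (TMM scaling, filterByExpr, robust quasi-likelihood fits with 1 fit for the B6 comparison and 1 for the EpiSC strains, and Benjamini-Hochberg adjustment over all features). All tests are two-sided. Alternatives were DESeq2 1.42.0 (Wald test), RLE scaling or scaling by library totals alone, dropping the filter or asking for at least 10 counts in each library, peak windows of 2 and 50 kb, the replicate number as a block, only the groups compared in the fit, and each library left out in turn. The fits were checked on simulated data. Start sites and promoters are from RefSeq, GRCm38.p6. Ttr and Spink1 had no promoter entry, so their distances are to the nearer gene end.

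The 10 genes and the gene lists were chosen with earlier results of these data known. By rule, all 10 genes are named in each comparison, with up to 4 further genes per list (up to 2 for PWK) that had the largest change among called genes with no overlap and a mean log2 CPM of at least 1. The peaks named are the one nearest the start within 2 kb and the called one with the largest change among peaks with at least the median count. Other genes and peaks were chosen after their values were seen. Some genes that this rule picks are not reported here. The labels do not say that replicates come from separate cultures, so p-values measure only the spread between these libraries. No 2 replicates agreed within sampling noise: chi-square per feature was at least 9.71 among 22 pairs of RNA libraries and at least 2.77 among 13 pairs of ATAC-seq libraries.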

Additional observations from a re-analysis of the deposited data

Results flagged for a closer look

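In groups of 4 or 5 libraries, 5 of 46 sets of values held 1 library far from the others, where chance gives about 1 in 20 sets. For Apoe RNA in B6 DE, replicate 2 had 1136 CPM against 531 to 564 in the others, a gap of 0.945 of the whole range. For Afp RNA in B6 DE, replicate 2 had 0.305 CPM and the other libraries 0, so the gap was 1 times the range, from 6 counts. At the Cubn peak chr2:13370629-13370916, DE replicate 4 had 0.783 CPM against 1.64 to 1.76 in the others (gap 0.877 of the range). At the same peak, EpiSC replicate 51 had 33.4 CPM against 17.5 to 19.7 (gap 0.862). At the Rbp4 peak chr19:38124944-38125011, EpiSC replicate 44 had 4.13 CPM against 0 to 0.477 (gap 0.885).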

How the results depend on the processing

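The calls of Lrp2, Amn, Apoa1, Apoe, Rbp4 and Spink1 between B6 DE and EpiSCs kept their direction and passed under every alternative that tested them. With at least 10 counts in every library, only 2 of the 10 genes were called higher, since fewer genes were tested. With no filter 1 was lower, since Dab2 was lost. Leaving out 1 library gave 5 genes higher each time and 1 to 2 lower. The labels do not say whether same-numbered DE and EpiSC libraries are paired. For RNA, correlations of their deviations were 0.13, 0.05, 0.13 and 0.18 in replicates 2, 4, 44 and 51. Pairs with different numbers gave -0.17 to 0.08, so replicates 2, 44 and 51 lay above all of these. A pairing of the RNA libraries thus remains possible, and the main fits did not use one. For ATAC-seq the values were 0.03, -0.01 and 0.02, inside the range of -0.05 to 0.04 for different numbers. With the replicate block, on libraries with shared numbers, 3792 genes were higher and 3939 lower, against 4171 and 4026 without the block, and the calls of the 10 genes did not change.

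For PWK, DESeq2 called 2 of the genes lower, and leaving out 1 library gave 1 to 2 lower, 1 higher, and 1126 to 2428 genes higher and 1317 to 2476 lower overall. Scaling by total library size gave 2226 genes higher and 1708 lower, against 1781 and 2142. Leaving out 1 library gave Apoe in PWK -0.17 to 0.31 and Cubn -0.02 to 0.98. The Apoe change turned to -0.03, -0.01 and -0.17 without B6 replicate 2, B6 replicate 44 or the PWK library with 38.5 CPM of Lrp2, and that of Cubn to -0.02 without the same PWK library. For B6129F1, DESeq2 called 884 genes higher and 1123 lower, no filter gave 146 lower, and a fit of only those groups gave 0 and 0. Leaving out 1 library gave 0 to 1001 genes higher and 0 to 951 lower, and 0 to 1 of the 10 genes lower. There Spink1 ranged from -0.55 to 0.43, at 0.13 and 0.43 without B6 replicates 1 and 4, and Lrp2 from -0.08, without B6129F1 replicate 4, to 0.21. The cause of these shifts was not tested.

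For ATAC-seq in DE, 14 peaks at the genes were higher and 16 lower within 2 kb, with a median of -0.12, and 43 were higher and 30 lower within 50 kb. With at least 10 counts in every library, 9642 peaks were higher and 8444 lower, with 3 and 6 at the genes, since fewer peaks were tested. Leaving out 1 library gave 34598 to 40495 peaks higher and 28605 to 36763 lower, with 21 to 26 and 17 to 21 at the genes. With scaling by library totals the median over all peaks went from -0.01 to -0.21, the Apoe peak chr7:19698247-19698479 had a change of -0.10 and the test called the Dab2 start peak lower (-0.64). The Apoe peak ranged from -0.22 to 0.24, at -0.04, -0.06, -0.12 and -0.22 without DE replicates 2 and 44 and EpiSC replicates 1 and 51. For PWK, 4 peaks were higher within 50 kb, and with at least 10 counts in every library 624 peaks were higher and 1598 lower, with 1 higher at the genes. Leaving out 1 library gave 1001 to 2024 peaks higher and 2635 to 5415 lower, with 1 to 2 each way at the genes.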
